A study of Homo sapiens with 30 samples.

Results

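The data of 10 heat shock chaperone genes were followed in BEAS-2B cells after exposure to whole birch pollen or to mock. The genes are HSPA1A, HSPA1B, HSPA8, HSPH1, DNAJB1, HSP90AA1, HSPB1, HSPD1, HSPE1 and BAG3, out of 43972 gene names on the arrays. A probe was taken where the gene name in the newer annotation of the array files is one of these, which gave 17 of 58201 probes. The files of the 6h50 min arrays name 18 probes so. The additional probe has another name in the newer annotation and was left out. The rule that picks the probes uses names and no measured value.

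BEAS-2B is a line of immortalized cells from human bronchial epithelium, which forms neither cilia nor mucus. All cultures were grown on inserts at the air-liquid interface for 24 h beforehand and were placed in the same sedimentation chamber at 37 °C. One set received 10 mg of birch pollen dispersed with pressured air, and the mock set, which the labels call air, received the pressured air while a mesh kept pollen from the wells. RNA was taken at 5 times, the earliest 10 min and 55 min, then 2h25 min, then 6h50 min and the last 24 h, with 3 arrays for each of the 10 groups. Each array holds 1 culture of this single line, and the repeats are stated to have been made on different days. Cells that never left the incubator were not analysed here, so that a change over time in mock has no untouched control beside it.

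Heat shock proteins bind unfolded protein chains and help them to fold, to stay soluble or to be passed on for degradation. HSP70 proteins work in cycles with J-domain partners such as DNAJB1, which load the client, and with exchange factors such as HSPH1 and BAG3, which release it. HSP90 proteins finish the folding of kinases and receptors, HSPD1 and its lid HSPE1 form the folding chamber of mitochondria, and HSPB1 is a small heat shock protein that holds unfolded chains without ATP. When unfolded protein accumulates, the factor HSF1 assembles into trimers and binds repeats of the letters GAA in alternating orientation in the promoters of these genes. In airway epithelium the response is known from heat, oxidants, metals and inhaled particles.

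The promoters are shown because a pair of these GAA units, facing towards or away from each other, can be read from them. The windows hold the 250 bases before the start of a gene, from RefSeq on GRCh38.p14, written 5′ to 3′ on the strand of the gene. Capitals mark GAANNTTC or TTCNNGAA, each of which is its own reverse complement, so that both strands are searched at once, and neighbouring matches may overlap. HSPA1A, HSPA1B and HSPA8 are given for their rise by 24 h and DNAJB1 for its 2 matches. HSPB1 is given for its fall, and BAG3 as a window with no match. HSPH1 and HSPE1, whose windows are not shown, held no match either, and both were called higher by 24 h in mock and in pollen. Whether a match goes with a change was not tested.
HSPA1A: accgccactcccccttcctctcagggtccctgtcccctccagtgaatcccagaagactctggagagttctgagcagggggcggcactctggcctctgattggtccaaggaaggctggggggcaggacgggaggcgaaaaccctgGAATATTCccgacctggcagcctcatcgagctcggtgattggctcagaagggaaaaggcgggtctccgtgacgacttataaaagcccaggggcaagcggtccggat
HSPA1B: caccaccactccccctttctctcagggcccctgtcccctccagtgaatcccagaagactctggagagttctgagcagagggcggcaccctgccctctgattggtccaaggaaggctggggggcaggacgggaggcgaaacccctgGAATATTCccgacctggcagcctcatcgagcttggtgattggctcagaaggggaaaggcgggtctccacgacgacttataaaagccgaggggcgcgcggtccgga
HSPA8: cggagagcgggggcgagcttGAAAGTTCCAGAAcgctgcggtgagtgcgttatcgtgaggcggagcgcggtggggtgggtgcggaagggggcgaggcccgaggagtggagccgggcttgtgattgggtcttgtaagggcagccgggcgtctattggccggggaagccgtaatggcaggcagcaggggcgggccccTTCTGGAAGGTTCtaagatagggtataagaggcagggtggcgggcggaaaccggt
DNAJB1: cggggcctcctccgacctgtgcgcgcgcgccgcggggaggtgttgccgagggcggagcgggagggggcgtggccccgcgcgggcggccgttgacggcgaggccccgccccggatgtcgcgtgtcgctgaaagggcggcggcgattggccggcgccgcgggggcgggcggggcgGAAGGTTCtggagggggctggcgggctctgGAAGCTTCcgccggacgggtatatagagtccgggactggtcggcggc
HSPB1: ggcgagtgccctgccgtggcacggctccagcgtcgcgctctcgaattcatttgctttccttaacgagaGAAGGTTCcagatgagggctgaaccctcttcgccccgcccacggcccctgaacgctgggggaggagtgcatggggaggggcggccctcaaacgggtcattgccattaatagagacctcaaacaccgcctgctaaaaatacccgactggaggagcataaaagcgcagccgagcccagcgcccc
BAG3: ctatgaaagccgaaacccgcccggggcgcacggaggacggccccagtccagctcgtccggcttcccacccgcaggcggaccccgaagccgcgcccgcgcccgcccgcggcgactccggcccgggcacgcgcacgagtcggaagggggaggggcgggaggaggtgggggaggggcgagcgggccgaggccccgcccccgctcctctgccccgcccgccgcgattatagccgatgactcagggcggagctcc

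The windows lie at chr6:31815293-31815542 on the plus strand for HSPA1A, chr6:31827488-31827737 on the plus strand for HSPA1B and chr11:123062137-123062386 on the minus strand for HSPA8. Those of DNAJB1, HSPB1 and BAG3 lie at chr19:14518398-14518647 on the minus strand, chr7:76302423-76302672 on the plus strand and chr10:119651130-119651379 on the plus strand. HSPA1A and HSPA1B are neighbouring copies, and their windows were identical at 235 of 251 aligned positions (93.6%), with the same GAATATTC at 106 and 105 bases before the start. In HSPA8 the matches lie in 2 places, where GAANNTTC begins 230 and 50 bases before the start and overlaps TTCNNGAA each time. Of the 10 genes, 7 held GAANNTTC in a window, namely HSPA1A, HSPA1B, HSPA8, DNAJB1, HSP90AA1, HSPB1 and HSPD1. Of all 27305 genes in RefSeq's promoters 7.05% held it. TTCNNGAA was held by 3 of the 10, namely HSPA8, HSP90AA1 and HSPD1, and by 8.12% of all genes. HSPH1, HSPE1 and BAG3 held neither, and either motif was found in 14.0% of all genes. Counted by window, 7 of 14 windows of these genes and 11.6% of all 35116 windows held either motif. HSPD1 and HSPE1 lie head to head on chromosome 2, and a window of one shares 104 bases with the window of the other.

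All 10 genes were measured well above background on all 30 arrays by the probe that stands for each, which is the one with the highest mean. On an array of the common design HSPA1A had 10 spots and every other probe 1 spot, so that its values average over more spots there. Of the 17 probes 16 passed the filter, which asked for a signal well above background on each array of some group. On hg19, to which the array files refer, these probes lie at chr6:31785491-31785550 for HSPA1A, chr6:31797870-31797929 for HSPA1B, chr11:122929478-122929537 for HSPA8 and chr19:14625803-14625862 for DNAJB1. Which part of a transcript they lie in was not looked up, since no annotation of that build was used. A second HSPA8 probe was well above background on 24 arrays and a further one, on 9 arrays, was not tested. The array of pollen 55 min replicate 1 is of another design, lacks the second HSPB1 probe and holds 42 spots for 16 probes of these genes. The up to 4 transcripts that the files list for a probe were not shared between any 2 of the genes, but whether HSPA1A and HSPA1B RNA binds to the probe of the other was not tested. Values are log2 intensities relative to the 75th percentile of the array, so that 0 is the brightness of that percentile, and values of different probes were not compared. A probe was called where limma gave a fold change of 1.1 or more with an adjusted p below 0.05, with adjustment over the 32142 probes tested.

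The arrays lie on 5 slides. All 10 min arrays share a slide with 1 mock array of 55 min, most arrays of 55 min and 2h25 min share the next, and all 6h50 min arrays lie on a slide of their own. The slide of the 24 h arrays also holds replicate 3 of 2h25 min, in mock and in pollen. Thus pollen and mock of one time mostly shared a slide, while 6h50 min and its slide cannot be told apart. No slide holds arrays of both 10 min and 24 h, so that a change between these times is also a change of slide. The share of probes well above background was between 44.7% and 49.8% on the arrays of 6h50 min and between 47.5% and 59.3% on the others. The 75th percentile of the signal was between 578 and 1151 at 6h50 min and between 1044 and 2111 on the other arrays. The part of this dimmer signal in the changes to and from 6h50 min was not tested. All 10 epithelial markers looked up, such as KRT18 and EPCAM, were well above background on all arrays. PECAM1, PDGFRA and LUM, which mark endothelium and fibroblasts, were well above background on 0 arrays. PTPRC, CD14, CDH5, COL1A1 and DCN, markers of leukocytes, endothelium and fibroblasts, were well above background on all 30.

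**Figure D1:**
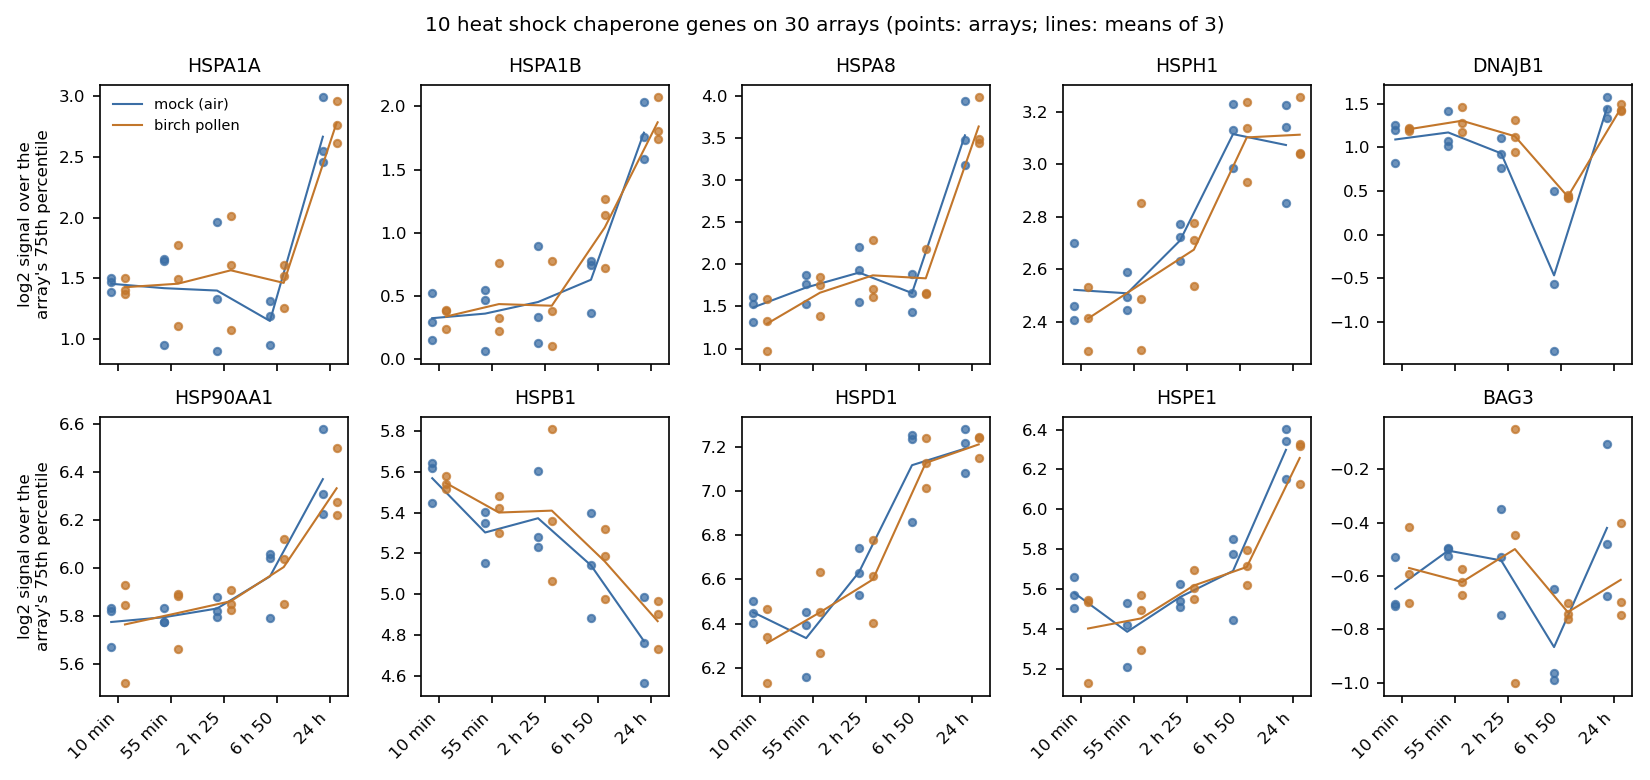
Level of each of the 10 genes in every array. The vertical axes show log2 signal relative to the 75th percentile of the array, with a scale of their own for each gene, and the horizontal axes show the 5 times, not to scale. Points are arrays and lines join the means of 3, with mock in blue and pollen in orange. The HSP70 genes HSPA1A, HSPA1B and HSPA8 lie highest at 24 h in both exposures, and HSPB1 lies lowest there.

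The first comparison asks whether pollen changed these genes against mock at the same time. Limma called 0 of the 10 genes at each of the 5 times. Of all probes tested, 0% were called at 10 min, 0.00311% at 55 min, 0.0342% at 2h25 min, 0.0436% at 6h50 min and 0.00311% at 24 h. So few calls among all probes mean that a count of 0 says little about these genes in particular. The median log2 fold change of the 10 genes was -0.03 at 10 min, 0.05 at 55 min, 0.03 at 2h25 min, 0.08 at 6h50 min and 0.03 at 24 h, beside medians between -0.032 and 0.0064 over all probes tested. At an unadjusted p under 0.05 there was 1 gene, DNAJB1 at 6h50 min, and 0 at the other times. Of the 32142 probes tested 2390 had such a p at 6h50 min, so that 1 of 10 is near the background. At the other times between 587 and 1637 probes had it.

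The intervals show how large a pollen effect could have been missed by the fit of group means, which does not pair arrays. Spread that same-numbered mock and pollen arrays share counts as error in it. At 10 min the log2 fold changes of the 10 genes lay between -0.19 and 0.12, and their 95% intervals reached from -0.67 to 0.65. At 55 min the fold changes lay between -0.12 and 0.13 and the intervals reached from -0.54 to 0.66. At 2h25 min they lay between -0.04 and 0.20, with intervals from -0.51 to 0.72. At 24 h the fold changes lay between -0.19 and 0.11 and the intervals between -0.55 and 0.62. At these 4 times all 10 intervals stayed within 1 log2 unit of 0.

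At 6h50 min 9 of the 10 fold changes were above 0, and all but that of DNAJB1 were small. HSPA1B, an inducible HSP70, measured 0.36, 0.78 and 0.75 in mock and 0.72, 1.27 and 1.14 in pollen. The pollen values lay mostly above the mock values, the groups overlapped, and the difference was 0.41 on the log2 scale with an interval from -0.02 to 0.84 (adjusted p = 0.704, limma). HSPA1A, the other inducible HSP70, measured 0.95, 1.31 and 1.19 in mock and 1.26, 1.61 and 1.52 in pollen. Its difference of 0.31 had an interval from -0.20 to 0.82 (adjusted p = 0.922, limma), again with overlapping groups.

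**Figure D2:**
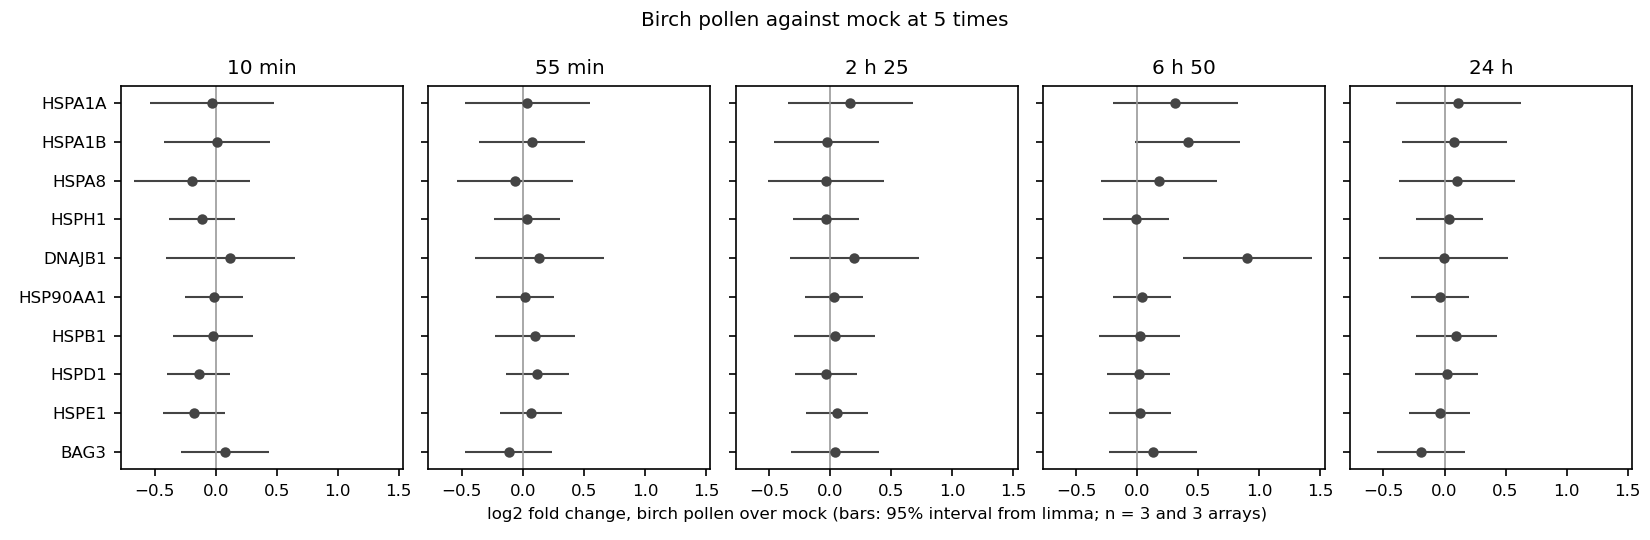
Difference between pollen and mock for the 10 genes at each time. The horizontal axis shows the log2 fold change, points are estimates from 3 against 3 arrays, and bars are 95% intervals from limma. Only DNAJB1 at 6h50 min has an interval apart from 0, from 0.37 to 1.43, and it was not called after adjustment.

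DNAJB1, the J-domain partner of HSP70, stood out at 6h50 min. Mock measured -1.33, -0.56 and 0.49 and pollen 0.43, 0.42 and 0.45. The mock arrays had an SD of 0.92, about as large as the difference from pollen, and mock replicate 3 was the highest of the 6. The difference was 0.90 on the log2 scale with a standard error of 0.25 and an adjusted p of 0.194 (limma). On mock replicates 1 and 2 the single DNAJB1 spot lies in a dim area of the array. There the spots within 10 rows and columns lay below their usual level by a median of -1.27 and -0.74 on the log2 scale, whereas on the other 28 arrays this median was between -0.04 and 0.17. With values from such uneven areas left out, only mock replicate 3 remained, the highest of the 6 arrays, and the difference was -0.06, with an adjusted p of 1.0 (limma) that assumes this lone array to vary like the other groups. Without that replicate, in contrast, it was 1.38 (adjusted p = 3.53e-05), with array weights 1.09 (adjusted p = 0.00396) and with the values as deposited 1.16 (adjusted p = 0.0463). All of these keep the spots from the dim area.

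**Figure D3:**
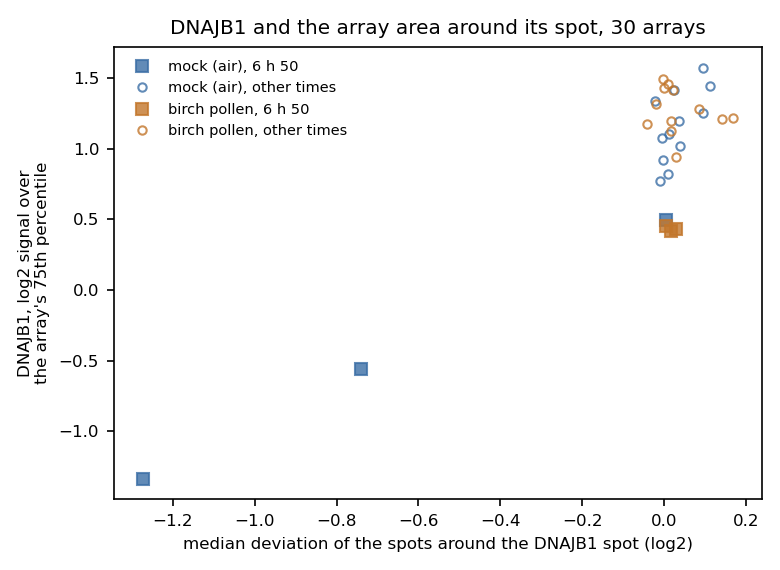
DNAJB1 signal against the brightness of the area around its spot. The horizontal axis shows the median log2 deviation of the surrounding spots from their usual level, the vertical axis the log2 signal of DNAJB1, and each point is 1 of 30 arrays. The 2 lowest DNAJB1 values, -1.33 and -0.56, belong to the 2 arrays with dim areas, at -1.27 and -0.74.

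Values of pollen and mock that did not overlap were found for 1 of the 10 genes, BAG3 at 55 min. BAG3 couples HSP70 to selective autophagy. It measured -0.49, -0.52 and -0.50 in mock and -0.57, -0.62 and -0.67 in pollen, a difference of -0.12 (adjusted p = 0.985, limma). At 55 min the groups did not overlap for 10.8% of all probes, so 1 of 10 is near the background. At the other times 0 of the 10 genes had groups apart, beside 5.82% of all probes at 10 min, 6.96% at 2h25 min, 11.7% at 6h50 min and 8.79% at 24 h. The change of the pollen effect between neighbouring times was called for 0 of the 10 genes in all 4 interaction tests, beside 0%, 0%, 0.00311% and 0% of all probes.

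The arrays on slide 2 allow the early comparison within 1 slide, with 2 against 2 arrays. HSPA1A differed by 0.00 at 55 min and by 0.16 at 2h25 min there, and 0 of the 10 genes were called, beside 0% of all probes at either time.

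The second comparison asks how the genes changed with time in each exposure. Between 10 min and 24 h the HSP70 genes rose most, 7 of the 10 genes rose and 1 fell in mock, and the same counts were reached in pollen. The same 7 genes, HSPA1A, HSPA1B, HSPA8, HSPH1, HSP90AA1, HSPD1 and HSPE1, rose in both exposures, and HSPB1 fell in both. In mock 17.5% of all probes were called higher and 20% lower, and in pollen 15.8% and 19.5%. Called higher in both exposures were 12.7% of all probes and lower in both 14.4%. The median log2 fold change of the 10 genes was 0.66 in mock and 0.78 in pollen, beside -0.06 and -0.07 over all probes tested. Mock and pollen were each compared with their own 10 min arrays. The 10 min arrays share a slide and the 24 h arrays another, so that in both exposures this comparison runs across the same slides.

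HSPA8, the constitutive HSP70, had the largest change of the 10. It measured 1.61, 1.53 and 1.32 in mock at 10 min and 3.94, 3.47 and 3.17 at 24 h. In pollen it measured 1.59, 0.97 and 1.32 at 10 min and 3.98, 3.44 and 3.48 at 24 h. Every 24 h array lay above every earlier array of the gene. The rise was 2.04 ± 0.23 (SE, n = 3 and 3) on the log2 scale in mock, a 4.11-fold change (adjusted p = 6.62e-07, limma), and 2.34 ± 0.23 in pollen, a 5.05-fold change (adjusted p = 2.92e-07, limma). The pollen 10 min replicate 2 spot lies in an uneven area, and with such areas left out the rise in pollen was 2.18. Changes at least as large in this direction were seen in 0.212% of all probes in mock and in 0.0529% in pollen.

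HSPA1A and HSPA1B, the stress-inducible copies, followed the same course. HSPA1A measured 1.47, 1.39 and 1.51 at 10 min in mock and 2.99, 2.55 and 2.46 at 24 h. In pollen its values were 1.41, 1.37 and 1.5 at 10 min and 2.96, 2.62 and 2.76 at 24 h. The rise was 1.21 ± 0.25 in mock (adjusted p = 0.000516, limma) and 1.35 ± 0.25 in pollen (adjusted p = 0.000229, limma), and the groups did not overlap. HSPA1B measured 0.30, 0.15 and 0.53 at 10 min in mock and 2.04, 1.76 and 1.58 at 24 h. Pollen arrays of HSPA1B gave 0.24, 0.39 and 0.38 at 10 min and 2.07, 1.81 and 1.74 at 24 h. It rose by 1.47 ± 0.21 in mock, a 2.76-fold change (adjusted p = 1.08e-05, limma), and by 1.54 ± 0.21 in pollen, a 2.90-fold change (adjusted p = 1.01e-05, limma).

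All 3 genes rose in the last interval, and HSPA1B in pollen was also called in the one before it, by 0.62. That earlier call ended in 4 of 6 fits that left out an array, with values between 0.46 and 0.80. The groups overlapped. From 6h50 min to 24 h HSPA1A rose by 1.51 in mock and 1.31 in pollen, HSPA1B by 1.16 and 0.83 and HSPA8 by 1.87 and 1.80, all of them called. Between 10 min, 55 min and 2h25 min 0 of the 10 genes were called in mock or in pollen. Of all probes 0.187% and 0.0156% were called in mock from 10 to 55 min and on to 2h25 min, and 0.843% and 0.208% in pollen. At 2h25 min HSPA1A measured 1.33, 1.96 and 0.90 in mock and 1.61, 2.01 and 1.07 in pollen, so that replicate 2 was highest and replicate 3, which lies on another slide, lowest in both. HSPA8 kept the same order at 2h25 min, with 1.94, 2.21 and 1.56 in mock and 1.70, 2.29 and 1.61 in pollen.

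Within the slide that holds 24 h and 2h25 min, 6 arrays of 24 h could be set against 2 of 2h25 min. There HSPA1A rose by 1.73 ± 0.16 (adjusted p = 0.00175), HSPA1B by 1.72 ± 0.14 (adjusted p = 0.00162) and HSPA8 by 1.99 ± 0.22 (adjusted p = 0.00235), by limma with exposure as a covariate. Both arrays of 2h25 min on this slide are replicate 3, 1 repeat in mock and pollen, while the fit takes them as independent, so that these p-values are too small. Replicate 3 was also the lowest of 2h25 min, in both exposures, for HSPA1A, HSPA1B, HSPA8 and DNAJB1. Between the replicate 3 arrays alone HSPA1A differed by 1.55 in mock and 1.69 in pollen, HSPA1B by 1.45 and 1.63 and HSPA8 by 1.61 and 1.87, as values with no test. The replicate numbers of 24 h are uncertain, since the deposited table orders these arrays otherwise within their groups. On this slide 7 of the 10 genes in all were called higher and 1, HSPB1, lower, beside 12.8% and 13.8% of the 23889 probes tested there. The 7 were the 3 HSP70 genes, DNAJB1, HSP90AA1, HSPD1 and HSPE1. HSPH1 changed by 0.38 (adjusted p = 0.0607) and BAG3 by -0.03 (adjusted p = 0.923). With slide as a fixed block in the model of all arrays, where 10 min and 24 h are linked only through the slides that they share with other times, 3 of the 10 genes were called in each exposure. Over all 32142 probes tested, higher and lower together, 1763 were called in mock and 935 in pollen. The calls of HSPH1, HSP90AA1, HSPB1, HSPD1 and HSPE1 ended in that fit. Those left were HSPA1A, HSPA1B and HSPA8, with rises of 2.31, 2.11 and 2.55 in mock and of 2.45, 2.18 and 2.85 in pollen. That fit ties the slide of 24 h to the others only through the same 2 arrays of replicate 3, the lowest of 2h25 min for these 3 genes. The part of these arrays in the larger rises was not tested.

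**Figure D4:**
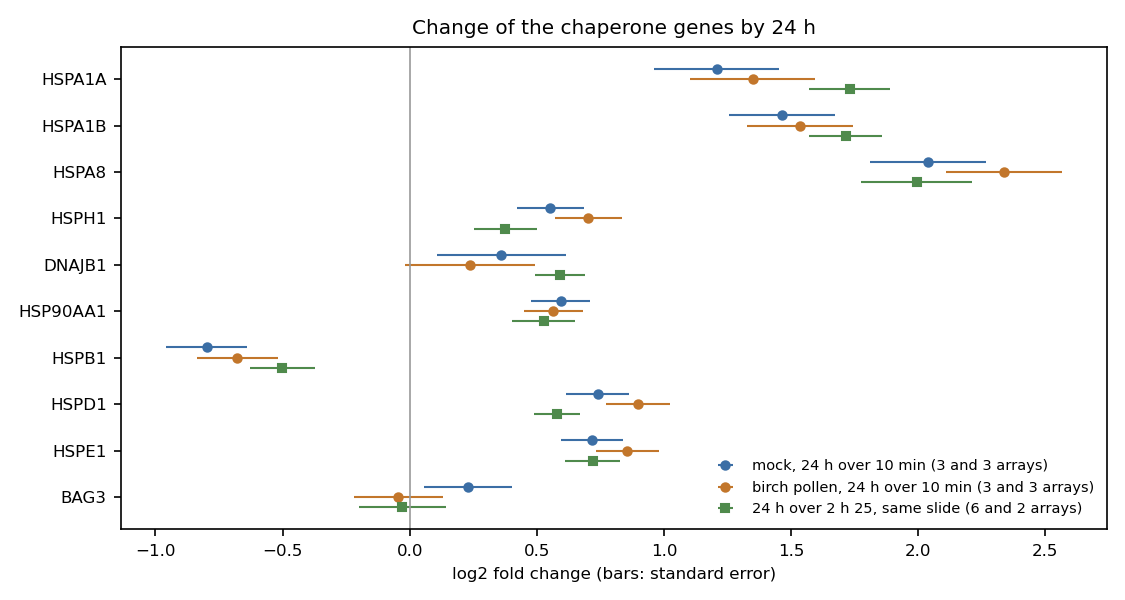
Change by 24 h in mock, in pollen and within the slide that 24 h shares with 2h25 min. The horizontal axis shows the log2 fold change and bars are standard errors from limma. HSPA1A, HSPA1B and HSPA8 lie between 1.21 and 2.34 in all 3 comparisons, HSPB1 lies below 0 and BAG3 close to 0.

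The partners of HSP70 moved less. HSPH1, which exchanges its nucleotide, measured 2.70, 2.41 and 2.46 at 10 min in mock and 3.23, 3.14 and 2.85 at 24 h, a rise of 0.55 (adjusted p = 0.00201, limma). In pollen HSPH1 rose by 0.70 (adjusted p = 0.000295, limma), from 2.29, 2.42 and 2.53 to 3.04, 3.26 and 3.04. It was already higher at 6h50 min than at 2h25 min, by 0.41 in mock and 0.43 in pollen, and differed by -0.04 and 0.01 between 6h50 min and 24 h. In each exposure the call at 6h50 min ended in 3 of 6 fits that left out an array. DNAJB1 differed by 0.36 in mock and 0.24 in pollen between 10 min and 24 h (adjusted p = 0.280 and 0.497, limma). With uneven areas left out these differences stayed the same, with an adjusted p of 0.0299 in mock and 0.154 in pollen. Within the slide of 24 h DNAJB1 rose by 0.59 ± 0.10 (adjusted p = 0.00653, limma). BAG3 differed by 0.23 in mock and by -0.04 in pollen (adjusted p = 0.318 and 0.868, limma).

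DNAJB1 was lowest at 6h50 min in both exposures. From 2h25 min it fell by 1.40 in mock on the log2 scale (adjusted p = 0.00041, limma) and by 0.69 in pollen (adjusted p = 0.0429, limma). The pollen arrays had no dim area at this spot and measured 1.12, 1.31 and 0.94 at 2h25 min against 0.43, 0.42 and 0.45 at 6h50 min, with no overlap. With uneven areas left out the fall was -0.44 in mock (adjusted p = 0.0696, limma), on 1 array at 6h50 min, and -0.69 in pollen (adjusted p = 0.000507, limma). Leaving out any 1 of the 6 arrays of pollen ended the call in pollen, with values between -0.78 and -0.60.

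HSP90AA1, the inducible cytosolic HSP90, measured 5.67, 5.84 and 5.82 at 10 min in mock and 6.58, 6.31 and 6.22 at 24 h. It rose by 0.59 ± 0.11 in mock (adjusted p = 0.000308, limma) and by 0.57 ± 0.11 in pollen (adjusted p = 0.000634, limma), where it went from 5.52, 5.93 and 5.85 to 6.50, 6.22 and 6.28. HSPD1, the mitochondrial HSP60, and HSPE1, the HSP10 that closes its chamber, rose side by side. HSPD1 measured 6.45, 6.40 and 6.50 at 10 min in mock and 7.28, 7.21 and 7.08 at 24 h, a rise of 0.74 ± 0.12 (adjusted p = 6.94e-05, limma), and rose by 0.90 ± 0.12 in pollen (adjusted p = 1.22e-05, limma). HSPE1 measured 5.51, 5.57 and 5.66 at 10 min in mock and 6.40, 6.34 and 6.15 at 24 h, a rise of 0.72 ± 0.12 (adjusted p = 7.88e-05, limma), and rose by 0.86 ± 0.12 in pollen (adjusted p = 1.7e-05, limma). Their times differed. HSPD1 had already risen at 6h50 min, by 0.48 in mock and 0.53 in pollen over 2h25 min, and changed by 0.07 and 0.08 from there to 24 h. HSPE1 changed by 0.13 and 0.09 up to 6h50 min and rose by 0.61 and 0.55 after it. The other HSPE1 probe had means of 4.51 at 2h25 min, 4.74 at 6h50 min and 5.21 at 24 h in mock. In pollen its means were 4.60, 4.60 and 5.03. Within the slide of 24 h HSPD1 rose by 0.58 and HSPE1 by 0.72 over 2h25 min.

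HSPB1, the small heat shock protein, went the other way. It measured 5.45, 5.64 and 5.62 at 10 min in mock and 4.99, 4.56 and 4.76 at 24 h, with no overlap. In pollen it measured 5.54, 5.58 and 5.52 at 10 min and 4.97, 4.73 and 4.91 at 24 h. HSPB1 fell by 0.80 on the log2 scale in mock (adjusted p = 0.000416, limma) and by 0.68 in pollen (adjusted p = 0.00226, limma). Within the slide of 24 h it fell by 0.50 from 2h25 min (adjusted p = 0.0267, limma). Its second probe fell by 0.43 in mock (adjusted p = 0.0361) and gave -0.35 in pollen (adjusted p = 0.0862).

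The markers of the cells moved over the same interval. Of the 10 epithelial markers 7 were called lower and 1 higher at 24 h than at 10 min in both exposures. KRT5, a basal keratin, fell by 3.29 in mock and 2.84 in pollen on the log2 scale, and EPCAM rose by 0.92 and 1.05. The summed level of the list lay between 7.92 and 8.34 at 10 min and between 7.08 and 7.48 at 24 h. The summed level of the 5 fibroblast markers lay between -0.91 and -0.57 at 10 min and between -2.33 and -1.77 at 24 h, with PDGFRA and LUM not well above background on any array. The 2 leukocyte markers well above background on all arrays, PTPRC and CD14, summed to between -0.74 and -0.19 at 10 min, and at 24 h to between -0.77 and -0.65 in mock and between -0.44 and -0.39 in pollen. At 6h50 min their sum lay between -0.92 and -0.78 in mock and between -0.37 and -0.12 in pollen, with no overlap. Groups did not overlap for 11.7% of all probes at that time. Of the 3 leukocyte markers tested 0 were called between pollen and mock at 6h50 min or at 24 h. The sum is mostly CD14, with a median of -0.43 over the arrays against -4.45 for PTPRC. The 3 endothelial markers summed to between -4.12 and -3.57 at 10 min and between -4.11 and -3.43 at 24 h. In bulk RNA fewer cells of a kind and less RNA per cell cannot be told apart, and the part of these shifts in the chaperone values was not tested.

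Around 6h50 min the counts were mixed. From 2h25 min to 6h50 min 2 of the 10 genes were called higher and 1 lower in mock, beside 9.88% and 22.6% of all probes. In pollen 3 were called higher and 1 lower, beside 11.1% and 19.9%. The gene called in pollen and not in mock was HSPA1B, with a rise of 0.62 in pollen (adjusted p = 0.0283, limma) and 0.18 in mock (adjusted p = 0.543, limma), a difference between exposures that was not called as an interaction. The HSPA1B call in pollen ended in 4 of 6 fits that left out an array. From 6h50 min to 24 h 7 were called higher in mock and 6 in pollen, beside 24.7% and 21.8% of all probes, and 0 lower. Beside the HSP70 genes and HSPE1 these were DNAJB1, with 1.92 and 1.01, HSP90AA1, with 0.40 and 0.33, and in mock BAG3, with 0.45 (adjusted p = 0.0441, limma). With uneven areas left out, which leaves 1 mock array at 6h50 min, DNAJB1 rose by 0.96 in mock. The call of BAG3 ended in 4 of 6 fits that left out an array of these groups, and its value without mock 24 h replicate 1 was 0.29 (adjusted p = 0.232, limma). Over all probes the median moved by -0.16 and -0.11 up to 6h50 min and by 0.14 and 0.12 after it, against which these changes are to be read.

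Probes of 1 gene did not follow each other at 6h50 min. The HSP90AA1 probe nearest the 3′ end changed by 0.13 in mock and 0.14 in pollen from 2h25 min to 6h50 min (adjusted p = 0.388 and 0.362, limma). The next probe upstream, A_23_P162874, fell by 0.86 and 0.64, and A_32_P199252, further upstream, fell by 0.78 and 0.68, all 4 called. On hg19 the 3 probes lie on the minus strand at chr14:102547395-102547454, chr14:102549453-102549512 and chr14:102550163-102550222. A_23_P162874 measured 4.99, 5.12 and 4.72 in mock at 2h25 min and 4.10, 4.40 and 3.77 at 6h50 min, with no overlap. The second HSPH1 probe gave -0.06 and -0.38 at 6h50 min, where the first rose, and the second HSPB1 probe fell by 0.58 and 0.49, where the first gave -0.23 and -0.25. At 24 h against 10 min the upstream HSP90AA1 probes A_23_P162874 and A_32_P199252 gave 0.36 and 0.21 in mock and 0.59 and 0.13 in pollen, of which the 0.59 was called. Within the slide of 24 h, however, all 3 HSP90AA1 probes were called higher than at 2h25 min, by 0.53, 0.65 and 0.49. The other probes of HSPH1 and HSPE1 also rose within that slide, by 0.54 and 0.56, while against 10 min they gave 0.36 and 0.56 in mock and 0.48 and 0.46 in pollen, of which the 0.56 and the 0.48 were called. The dim HSPA8 probe did not follow the bright one, with 0.07 in mock and 0.02 in pollen at 24 h against 10 min.

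**Figure D5:**
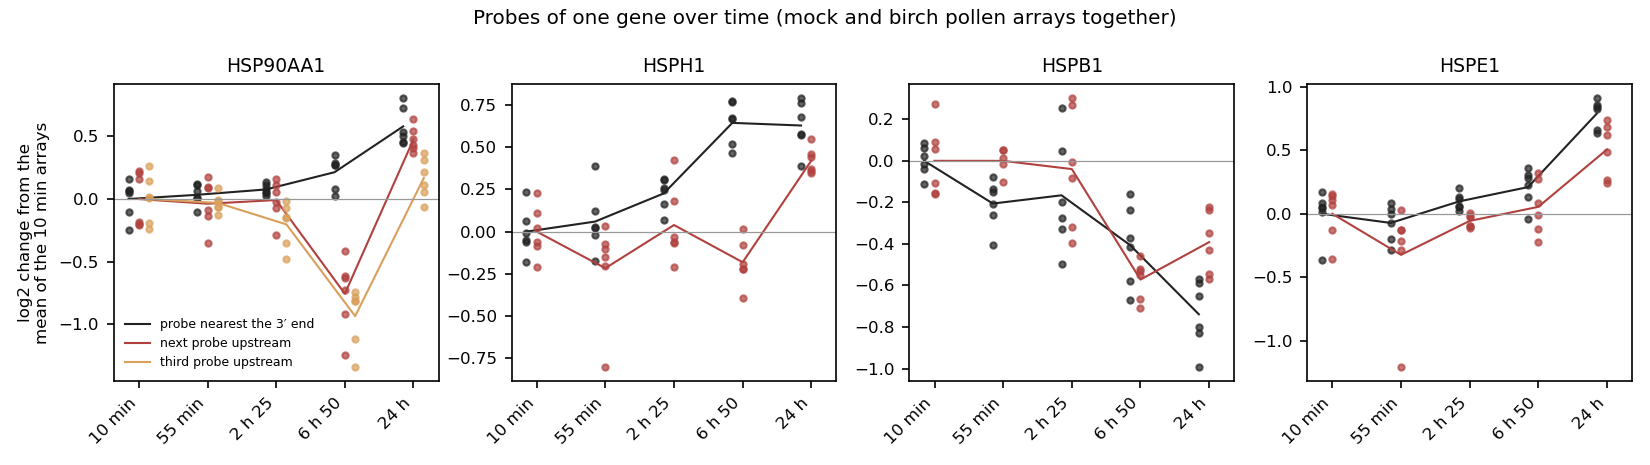
Probes of the 4 genes with several bright probes. The vertical axes show the log2 change of each probe from its mean at 10 min, the horizontal axes the 5 times, points are arrays of mock and pollen together and lines join their means. For HSP90AA1 the upstream probes fall at 6h50 min while the probe nearest the 3′ end does not.

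The probe position was therefore looked at over other genes. In 1092 genes with 2 probes between 100 and 3000 bases apart, the upstream probe was compared with the downstream one, each relative to other times. The median of this difference was between -0.15 and -0.02 on the 6 arrays of 6h50 min and between -0.08 and 0.10 on the other 24. Its part in the chaperone values was not tested.

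Other chaperone genes were followed in 8 lists. In all 84 gene names of these lists were tested, 2 of them for the same gene, and 0 were called between pollen and mock at any of the 5 times. The largest differences were -0.95 for HSPA6, a strictly inducible HSP70 that was well above background on 2 of the 3 pollen arrays, and -0.69 for TCP1, a subunit of the TRiC chaperonin, both at 55 min (adjusted p = 0.918 for each, limma). DNAJC7 differed by 0.60 at 6h50 min (adjusted p = 0.452, limma). At 24 h against 10 min 30 of the 84 were called higher in mock, 31 in pollen and 26 in both, and 4 were called lower in both. Over all probes the shares were 17.5%, 15.8% and 12.7% higher and 14.4% lower in both. Within the slide of 24 h 15 of these 26 were called higher than at 2h25 min as well, and with slide as a fixed block 3 of the 26 in both exposures. The 26 were picked with the same 24 h arrays. The matching shares among all probes called higher in both exposures are not given, so that these counts have no background.

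The lists are given here by their counts, to be read beside the 12.7% of all probes called higher in both exposures. Of 13 chaperones of the endoplasmic reticulum 7 were called higher in both exposures, and 0 of them with slide as a fixed block. Among them HSPA5, the HSP70 of that compartment, rose by 1.68 in mock and 1.62 in pollen on the log2 scale, and DNAJB9, its J-domain partner, by 0.86 and 0.69. HYOU1, which exchanges the nucleotide of HSPA5, rose by 1.49 and 0.87. Of 14 genes of the TRiC chaperonin and of prefoldin, which feeds it, 5 were called higher in both, all of them of prefoldin. PFDN2 rose by 1.47 and 1.19 and PFDN6 by 1.05 and 1.05, whereas CCT5, a subunit of TRiC, fell by 0.77 and 0.83.

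Among 23 further genes of the HSP70 family and its partners 8 were called higher in both exposures and 1 lower. DNAJA1, a J-domain partner of HSP70, rose by 0.92 in mock and 1.05 in pollen, and HSPA1L, which lies beside HSPA1A, by 1.06 and 1.14. Of 10 genes around HSP90 1 was called higher in both, AHSA1, which stimulates the ATPase of HSP90 and rose by 0.79 and 0.71. HSP90AB1, the constitutive HSP90, rose by 0.50 in mock and gave 0.33 in pollen, which was not called. Of 7 small heat shock proteins tested 0 were called higher in both, and CRYAB fell by 0.69 and 0.38. IFT25 and HSPB11 in this list are 2 names of 1 gene that different probes carry. Of 10 mitochondrial chaperones and proteases 3 were called higher in both, among them LONP1 with 0.77 and 0.48, and DNAJA3 was called lower with -0.33 and -0.30. Of 5 heat shock factors and regulators HSBP1, which binds HSF1 trimers, was called higher in both, by 0.87 and 0.75. HSF1 differed by 0.25 in mock and was called higher in pollen by 0.50.

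The course of HSPA1A over the 30 arrays was shared most closely by HSPA8 (Pearson r = 0.93) and HSPA1B (r = 0.91) among the chaperone genes. HSPH1 correlated with HSPD1 (r = 0.90) more closely than with HSPA1A (r = 0.40), and HSP90AA1 with HSPE1 (r = 0.94). Outside the chaperones the closest 5 named genes were DOLK (r = 0.913), MYL6 (r = 0.901), CERK (r = 0.887), CPSF6 (r = 0.885) and COA3 (r = 0.885). DOLK, a kinase of dolichol, had a mean of 0.25 in mock at 10 min and of 1.36 at 24 h. MYL6, a myosin light chain, had means of 5.04 and 5.89 at these times. The arrays share slides, times and scaling, so that these values describe a common course and were not tested.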

How the data were processed

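The authors labelled RNA of BEAS-2B cells with Cy3, hybridised 30 one-colour Agilent arrays and extracted them with Feature Extraction 11.0.1.1 (submitters' processing notes). The deposited intensity (gProcessedSignal) is background-subtracted and detrended within the array, not scaled between arrays. The deposited log2 table was preprocessed by the authors with limma, by steps not given in the sources used here, and was used as an alternative, without its column for the array of the other design. All 6 of its 24 h columns matched another array of their own group best, so that replicate numbers at 24 h are uncertain, in that table or in the array files. Arrays have no read depth, so their number limits the precision, and 0 spots were saturated.

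Here the unflagged spots of a probe were averaged, log2 transformed and scaled to the 75th percentile of the array over probes present on both designs. Limma 3.58.1 in R 4.3.3 fitted the means of the 10 groups on 30 arrays with 20 residual degrees of freedom, and 19 comparisons were tested. A probe was tested if some group had it well above background on each of its arrays. The fold limit of 1.1 was not applied to interactions. P-values measure the spread between these cultures of 1 line. The fit was tested on simulated data. Alternatives were quantile scaling, the percentile over own probes, normexp with offset 50, 2 filters, array weights, slide as a block, a replicate block, other probes, fewer samples and left-out arrays. Uneven areas, where the median of the spots within 10 rows and columns deviated by over 0.3 on the log2 scale, were left out in another. The comparison within the slide of 24 h and the fixed slide block were added after the data were seen.

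Labels give replicate numbers to both exposures. The deviations of same-numbered arrays correlated with r of 0.46, 0.40 and 0.43 at 10 min, 0.28, -0.07 and 0.40 at 55 min, 0.64, 0.49 and 0.56 at 2h25 min, 0.03, 0.23 and -0.03 at 6h50 min, and 0.75, 0.30 and 0.40 at 24 h, so that the numbers were taken to pair arrays at 10 min, 2h25 min and 24 h. The 10 genes and all lists were chosen with earlier results of these data known. Named were the 10 genes in every comparison, list genes called or among the 3 largest changes, and the 5 genes closest to HSPA1A by Pearson r. The text names some of these and gives the others as counts. Some genes of the lists are not reported here.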

Additional observations from a re-analysis of the deposited data

How the results depend on the processing

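The count of 0 genes called between pollen and mock held under all alternatives at 10 min, 55 min, 2h25 min and 24 h. At 6h50 min it was 1 gene, DNAJB1, with array weights, 1 with the deposited table and 0 to 1 with each array left out, the 1 coming without mock replicate 3, where the interactions with 2h25 min and with 24 h also gave 0 to 1. Over all probes the 14 calls at 6h50 min became 530 with array weights, 386 with the deposited table, 150 with normexp, 135 with the replicate block, 47 with the stricter filter, 3 without uneven areas and 0 to 507 with an array left out. For 24 h against 10 min, the 8 calls became 3 with slide as a fixed block in mock and 3 in pollen, and the 12041 and 11347 calls over all probes became 1763 and 935. With slide as a random block these were 7885 and 6565, and with the percentile over own probes 6441 and 5370. From 2h25 min to 6h50 min the 3 calls in mock became 1 with the percentile over own probes, 0 with only the groups compared and 2 to 3 with an array left out. The 4 calls in pollen became 0 with own probes, 2 without a filter, 1 with a random slide block, 2 with only the groups compared, and 1 to 3 with an array left out, with 2 without replicate 2 or 3 of 2h25 min and 1 without replicate 2 or 3 of 6h50 min. From 6h50 min to 24 h the 7 calls in mock became 4 with own probes and 6 to 8 with an array left out, and the 6 in pollen 5 to 6. Directions turned in 4 cases. HSPH1 gave -0.064 in mock and -0.38 in pollen from 2h25 min to 6h50 min by its other probe, HSPA8 gave -0.023 in pollen from 6h50 min to 24 h by its dim probe, and HSP90AA1 gave -0.04 in mock from 6h50 min to 24 h in the deposited table. The causes were not tested. With the replicate block 8 genes were called in each exposure for 24 h against 10 min and 0 between pollen and mock at each time. The block ended the calls of BAG3 in mock from 6h50 min to 24 h (adjusted p = 0.0508, limma) and of DNAJB1 in pollen from 2h25 min to 6h50 min, and no other. At 55 min and 6h50 min some same-numbered arrays correlated little, with r down to -0.07 and -0.03, so that whether the numbers pair them is not known. The authors state that exposed cells always had a mock control from their own run. A fixed slide block could not be fitted for 6h50 min. Dim probes had little signal over background, which limits the HSPA8 probes other than the first.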
